A study of Zea mays with 6 samples.

Results

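Transcripts of 4 maize genes tied to auxin and to the start of side branches of the tassel were followed in tassel meristems. The genes are barren stalk1 (ba1, Zm00001d042989), barren inflorescence2 (bif2, Zm00001d031068), vanishing tassel2 (vt2, Zm00001d008700) and sparse inflorescence1 (spi1, Zm00001d044069). They were chosen for their known roles and mutant forms, not for their values here, and are 4 of the 45953 features in the deposited count table. Earlier results of these data were, however, known when the choice was made. The table gives identifiers only, and the 4 names were supplied with the identifiers. The reference table used here holds 3 of the names, under other identifiers, so the pairing of name and identifier could not be checked in it.

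The tassel, the male inflorescence of maize, forms its branches and spikelets from axillary meristems, which start where the plant hormone auxin collects at the flank of the main meristem. Auxin is made from tryptophan in a short pathway: an aminotransferase makes indolepyruvate, and a flavin monooxygenase of the YUCCA family turns it into auxin. vt2 encodes an aminotransferase of the first step and spi1 a YUCCA enzyme of the second. Auxin then moves from cell to cell through PIN efflux carriers. bif2 encodes a protein kinase, the maize counterpart of Arabidopsis PINOID, which acts on the placement of these carriers. ba1 encodes a transcription factor with a basic helix-loop-helix domain that is needed to start axillary meristems. Mutants of these genes make tassels with few or no branches and spikelets.

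RNA came from 1 mm tassel meristems of 3 wild-type libraries (WT, inbred line B73) and 3 libraries of the tassel-less1 mutant (tls1). The labels give B73 as the cultivar of both, call tls1 boron deficient, and place the plants between the V6 and V7 leaf stages. All plants received a fertilizer set to 238 ppm nitrogen, which carried 0.08 ppm boron, and no other treatment. The series' design places the harvest before the mutant's shape departs from normal, and the comparison asks which transcripts already differ then. No label says whether a library held 1 or several plants, or which allele of tls1 was used. Counted reads per library lay between 72498318 and 77619452. The labelled tissue could not be checked against meristem markers, because 0 of the 43789 nuclear identifiers were paired with a name in the reference table. For the same reason the other genes of auxin synthesis, transport and response and of axillary meristems, 74 list entries by symbol, are not analysed here. No sequence of the 4 genes was in the sources used here, so none is printed.

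ba1 was listed at 0 reads in each of the 6 libraries. A count of 0 allows up to 3 counts per library, which is between 0.0387 and 0.0414 CPM (reads of a gene per 1000000 counted reads). No WT transcript of ba1 was therefore registered against which tls1 could be compared, and ba1 entered no test. Of all nuclear identifiers, 26.4% were at 0 in every library. Among the 20 rows of the table nearest to ba1, 8 were also at 0 in every library and 10 had enough reads to be tested. The counting program and its treatment of reads that fit several places are unknown here, so a 0 cannot be read as absence of the transcript in the tissue.

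**Figure D1:**
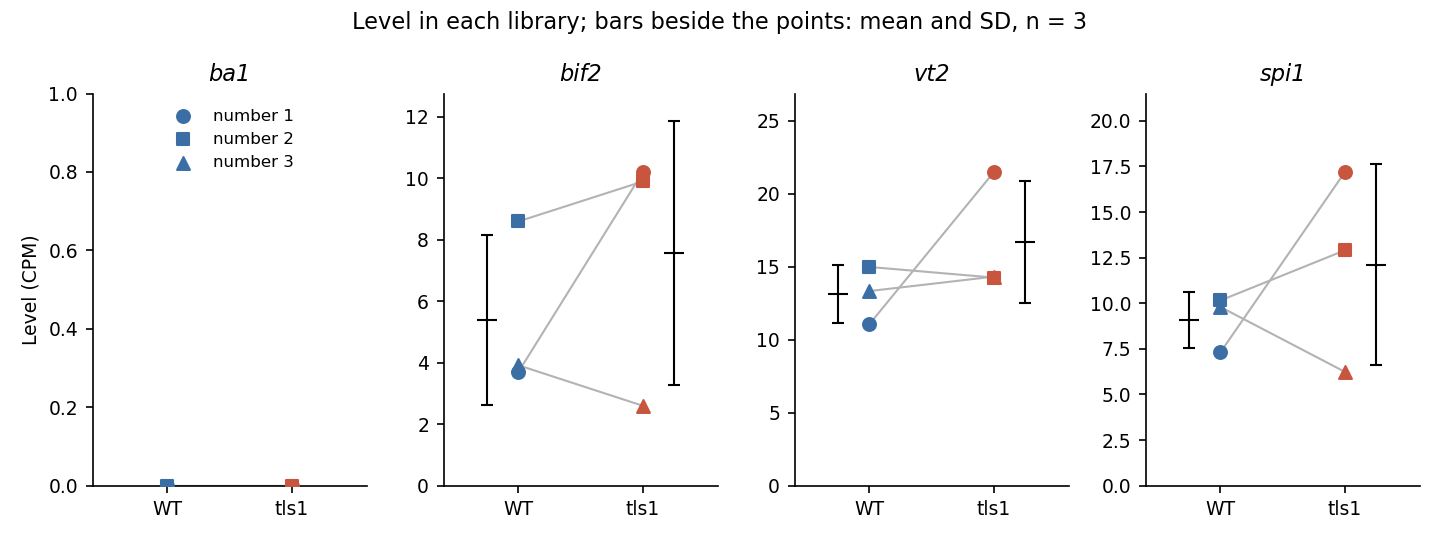
Level in CPM (vertical axes, each from 0) of ba1, bif2, vt2 and spi1 in the WT (blue) and tls1 (red) libraries, with marker shapes for replicate numbers and grey lines joining libraries of 1 number; black bars are the mean and SD of 3 libraries. ba1 lies at 0 in all libraries, and for bif2, vt2 and spi1 the tls1 values overlap the WT values.

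For bif2, the PINOID-type kinase, 287, 623 and 293 reads were counted in WT libraries 1, 2 and 3, equal to 3.70, 8.59 and 3.92 CPM. In tls1 libraries 1, 2 and 3, 760, 727 and 194 reads gave 10.2, 9.90 and 2.60 CPM. The highest and the lowest of the 6 libraries were both tls1, and WT 2 lay close to the high tls1 libraries. WT averaged 5.40 ± 2.77 CPM and tls1 averaged 7.56 ± 4.31 CPM (SD, n = 3 for both). The difference between these means was smaller than either SD. The log2 fold change, tls1 over WT, was 0.46 ± 0.57 (SE), with a 95% interval from -0.90 to 1.83 (edgeR adjusted p = 0.725). With the replicate number as a block, the value was 0.34 ± 0.39 (SE), with a narrower 95% interval from -0.62 to 1.31. A change of more than 2-fold in the upward direction lay within both intervals. Within tls1 the highest library had 3.93 times the level of the lowest, and within WT 2.32 times.

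For vt2, the aminotransferase of the first step of auxin synthesis, WT libraries 1, 2 and 3 had 11.1, 15.0 and 13.3 CPM, from 859, 1087 and 998 reads. The tls1 libraries 1, 2 and 3 had 21.5, 14.3 and 14.3 CPM, from 1602, 1048 and 1071 reads. tls1 1 stood above all other libraries, while tls1 2 and tls1 3 lay inside the WT range. WT averaged 13.1 ± 1.97 CPM and tls1 averaged 16.7 ± 4.16 CPM (SD, n = 3 for both). The log2 fold change was 0.33 ± 0.20 (SE), with a 95% interval from -0.15 to 0.80 (edgeR adjusted p = 0.456). Of the 3 detected genes, vt2 had the narrowest interval in this fit, and a doubling or a halving lay outside it. The replicate block over all pairs gave 0.31 ± 0.21 (SE), with a 95% interval from -0.21 to 0.83 (edgeR adjusted p = 0.455). Both a doubling and a halving lay outside that interval too. The exclusion of a doubling, however, depended on the fit. With the replicate number as a block and the libraries of number 2 or 3 left out, the upper limits were 1.05 and 1.10, so a doubling lay inside.

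For spi1, the YUCCA enzyme of the second step, WT libraries 1, 2 and 3 had 7.30, 10.2 and 9.80 CPM, from 567, 736 and 733 reads. The tls1 libraries 1, 2 and 3 had 17.2, 12.9 and 6.24 CPM, from 1281, 948 and 466 reads. As for bif2, tls1 held both the highest and the lowest value, so the genotypes overlapped over the whole WT range. WT averaged 9.08 ± 1.55 CPM and tls1 averaged 12.1 ± 5.52 CPM (SD, n = 3 for both). The log2 fold change was 0.39 ± 0.35 (SE), with a 95% interval from -0.46 to 1.24 (edgeR adjusted p = 0.622). With the replicate number as a block, it was 0.30 ± 0.35 (SE), with a 95% interval from -0.56 to 1.16 (edgeR adjusted p = 0.665).

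None of the 3 detected genes was called at an adjusted p under 0.05 by edgeR, DESeq2 or limma-voom, and at an unadjusted p under 0.05 the count was also 0 in these fits. Over the whole table edgeR called 1 of 23349 genes, or 0.00428%, limma-voom 0.00857% of the same genes and DESeq2 5.00% of 23979. An unadjusted p under 0.05 was reached by 16.5% of the 23349 genes in edgeR and 16.6% in limma-voom. In DESeq2 it was 12.6% of a wider set of 32718 genes, so that share is not on the same base. With the replicate number as a block, edgeR called 0.694% of the genes, and again 0 of the 3. Libraries of the genotypes did not overlap in 22.5% of the tested genes, but overlapped in all 3 of these. Meristems were measured whole, so fewer cells of a type and less RNA per cell cannot be told apart in any of these levels.

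For bif2 and spi1, the change within libraries of the same replicate number differed between all 3 pairs by more than counting error. For vt2 only pair 1 stood apart in this way. For bif2 the log2 change, tls1 over WT, was 1.46 in pair 1 (95% exact interval for counting error 1.27 to 1.67), 0.20 in pair 2 (0.05 to 0.36) and -0.59 in pair 3 (-0.86 to -0.33). In ratios, bif2 had 2.76 times the WT level in tls1 1, 1.15 times in tls1 2 and 0.663 times in tls1 3. The direction therefore turned between pair 1 and pair 3, and the 3 intervals did not overlap.

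spi1 showed the same order of pairs. Its log2 change was 1.24 in pair 1 (interval 1.09 to 1.38), 0.35 in pair 2 (0.21 to 0.49) and -0.65 in pair 3 (-0.82 to -0.48), or 2.35, 1.27 and 0.636 times the WT level. vt2 was higher in tls1 in pair 1, with a log2 change of 0.96 (0.84 to 1.08), or 1.94 times. In pair 2 it was -0.07 (-0.20 to 0.05) and in pair 3 it was 0.10 (-0.02 to 0.23), both intervals reaching across 0. These intervals hold for counting error only and say nothing of the spread between plants.

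**Figure D2:**
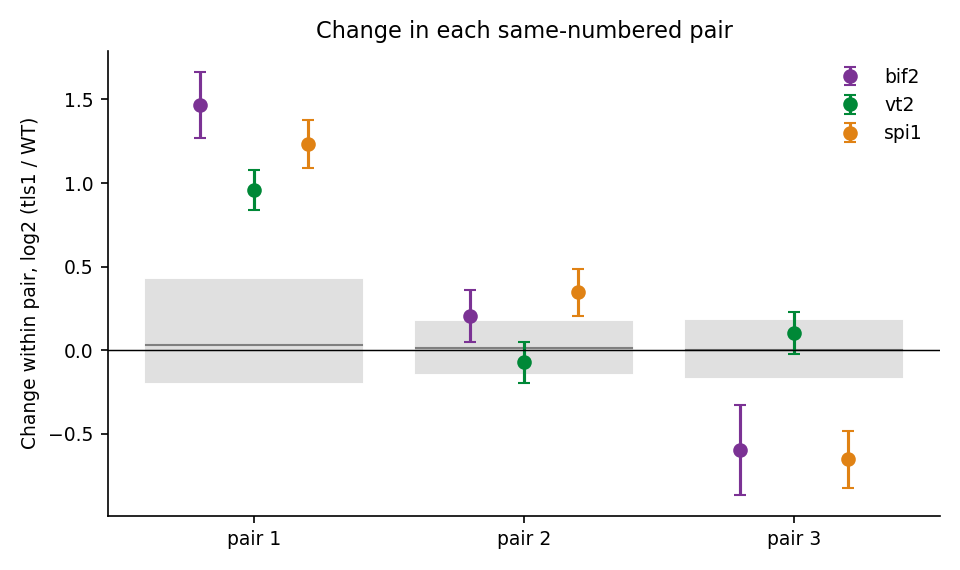
Log2 ratio of CPM, tls1 over WT (vertical axis), in each pair of libraries with the same replicate number, for bif2, vt2 and spi1; bars are 95% exact intervals for counting error, and grey boxes span the lower to the upper quartile of all tested genes with their median as a line. All 3 genes lie above the box in pair 1, and bif2 and spi1 lie below it in pair 3.

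Over the 3 pairs the mean log2 change was 0.36 ± 1.04 for bif2, 0.33 ± 0.55 for vt2 and 0.31 ± 0.94 for spi1 (SD, n = 3 pairs), each smaller than its SD. Each gene was higher in tls1 in 2 of 3 pairs: all 3 in pair 1, bif2 and spi1 in pair 2, and vt2 in pair 3. Of all tested genes, 53.7% were higher in tls1 in pair 1, 52.5% in pair 2 and 49.9% in pair 3. Across the tested genes, 24.6% were higher in all 3 pairs and 21.3% lower in all 3, and none of these genes was among them. The pattern of bif2 and spi1, higher in pair 1 and lower in pair 3, was shared by 18.9% of the tested genes. That pattern was counted after the values had been seen.

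Pair 1 was also the pair with the widest changes over all genes. The quartiles of the log2 change over the tested genes were -0.19 and 0.42 in pair 1, -0.13 and 0.17 in pair 2, and -0.16 and 0.18 in pair 3. In pair 1, 6.79% of the tested genes had a higher log2 change than bif2, 9.34% a higher one than spi1 and 13.3% a higher one than vt2. In pair 3, 4.40% of the genes had a lower log2 change than spi1 and 5.12% a lower one than bif2.

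The direction of the mean difference rested on pair 1 for bif2 and spi1, and vt2 kept almost no difference without pair 1. With the replicate block and without pair 1, the log2 fold change was -0.18 ± 0.22 for bif2, 0.01 ± 0.11 for vt2 and -0.15 ± 0.23 for spi1 (SE, edgeR adjusted p = 0.761, 0.983 and 0.816). Without pair 3 the values were 0.81 ± 0.34 for bif2, 0.42 ± 0.27 for vt2 and 0.77 ± 0.25 for spi1 (edgeR adjusted p = 0.423, 0.548 and 0.365). Leaving out tls1 3 alone, without the block, brought spi1 to 0.70 ± 0.20 with an unadjusted p = 0.0144 and an edgeR adjusted p = 0.160. An unadjusted p under 0.05 was common in that fit. Of 23880 genes, 2445 reached it with a higher level in tls1 and 2520 with a lower level. At an adjusted p under 0.05 that fit called 0 genes. The lowest and highest spi1 libraries, tls1 3 and tls1 1, thus moved its value most.

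**Figure D3:**
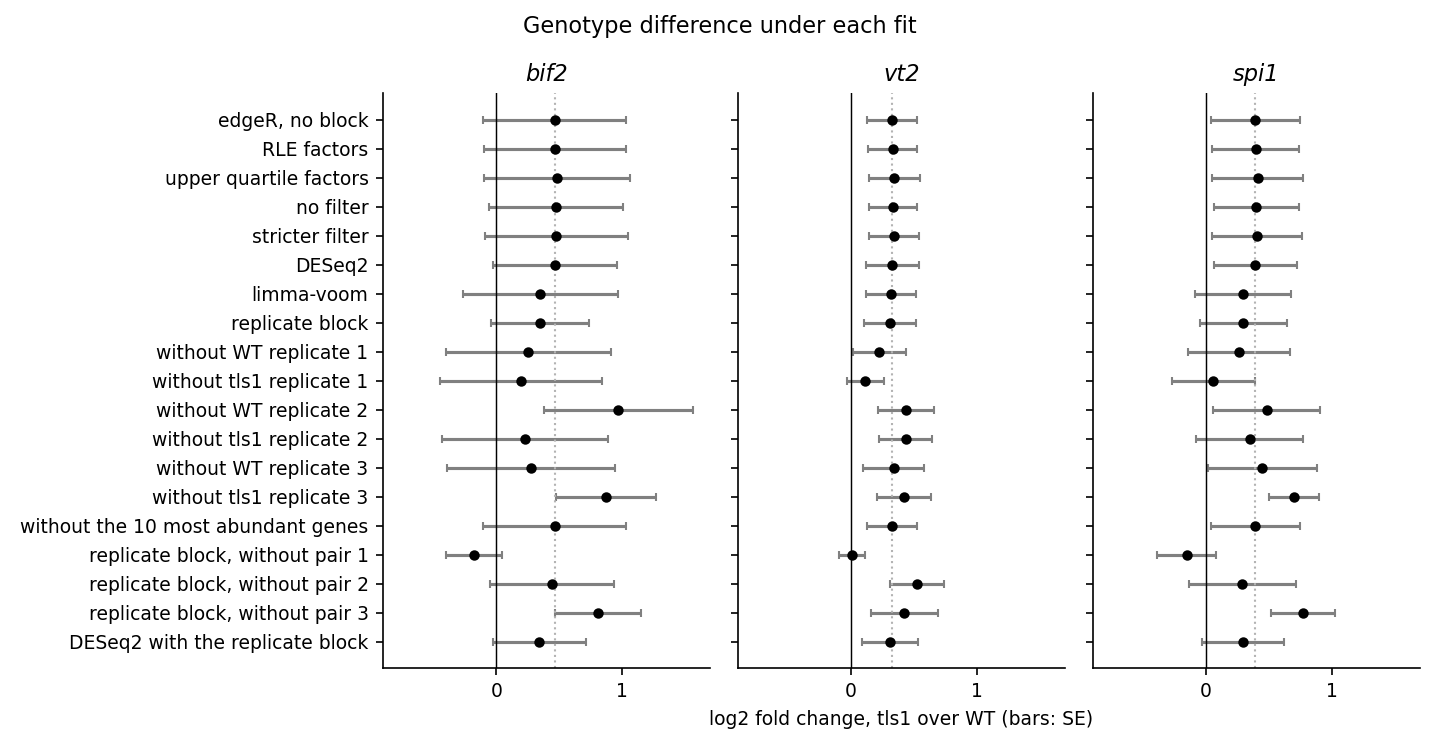
Log2 fold change, tls1 over WT (horizontal axis), of bif2, vt2 and spi1 under each fit named on the left; points are estimates, bars are SE, and the dotted line marks the fit of edgeR without the block. Values stay above 0 except for bif2 and spi1 without pair 1, at -0.18 and -0.15, where vt2 lies at 0.01.

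The 3 detected genes differed in how widely they varied over the 6 libraries. The root mean square deviation of log2 CPM from the gene's own mean was 0.77 for bif2, 0.48 for spi1 and 0.28 for vt2. Of all tested genes, 7.77% varied more than bif2, 19.6% more than spi1 and 34.9% more than vt2. Counting error, taken as the square root of the count, was at most 7.18% of a value (bif2 in tls1 3). The SD over the 6 libraries was 53.2% of the mean for bif2, 37.6% for spi1 and 23.5% for vt2. Counting error was thus small beside the spread between libraries.

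The levels of bif2 were high or low with the sign of the score on the main axis of difference between the libraries. The genotypes overlapped on this axis. The first principal component of all tested genes held 39.0% of the variance and gave scores of -67.6 to WT 3, -32.2 to WT 1, -32.2 to tls1 3, 31.0 to WT 2, 34.4 to tls1 1 and 66.5 to tls1 2. Within each of the 3 pairs the tls1 library had the higher score, while bif2 was lower in tls1 3 than in WT 3. bif2 was below 4 CPM in the first 3 of these libraries and above 8 CPM in the others. On the log2 scale, centred on its mean, bif2 had -0.52, -0.60 and -1.12 in WT 3, WT 1 and tls1 3 and 0.61, 0.83 and 0.79 in WT 2, tls1 1 and tls1 2. spi1 had -0.02, -0.44 and -0.68 in the first 3 and 0.03, 0.76 and 0.35 in the others, so its WT 2 and WT 3 libraries lay close together. For vt2, the libraries other than WT 1 and tls1 1 lay between -0.12 and 0.04, on both sides of the axis. The axis was computed from all tested genes, bif2 among them. How many of the tested genes split along it as bif2 did was not counted, so the split cannot be called particular to bif2. The part of this axis in the differences between genotypes was not tested.

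**Figure D4:**
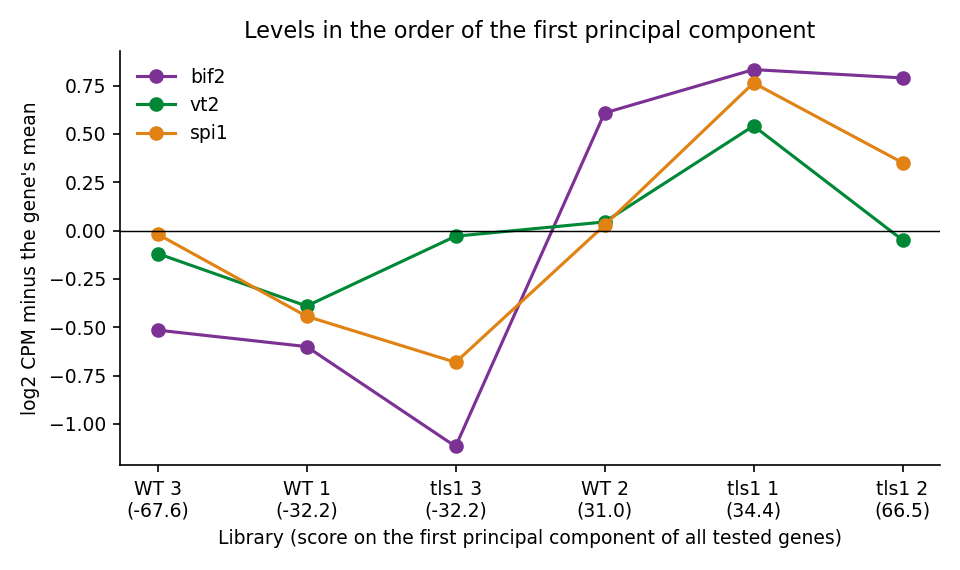
Log2 CPM of bif2, vt2 and spi1 minus each gene's mean (vertical axis) in the 6 libraries, ordered from left to right by their score on the first principal component of all tested genes, given in brackets. bif2 lies below 0 in the 3 libraries with negative scores and above 0.6 in the 3 with positive scores, while vt2 departs from 0 mainly in WT 1 and tls1 1.

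Of the 3 genes, spi1 and vt2 were the closest by the root mean square difference between centred log2 levels over the 6 libraries, at 0.33. It was 0.41 between bif2 and spi1 and 0.64 between bif2 and vt2. Measured from bif2, 2.20% of the 23348 other tested genes lay closer than spi1, and 15.3% closer than vt2. Measured from spi1, 6.27% lay closer than vt2 and 15.4% closer than bif2. Measured from vt2, 44.5% lay closer than spi1 and 88.7% closer than bif2. These are descriptions over 6 libraries, with no test.

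By the same measure, the tested gene most like bif2 was Zm00001d010759, at 0.107 on the log2 scale, where the median over all genes was 0.795. It had 0.799, 1.66 and 0.842 CPM in WT 1, 2 and 3 and 2.07, 1.92 and 0.602 CPM in tls1 1, 2 and 3. The most like vt2 was Zm00001d025322, at 0.051 (median 0.342), with 0.928, 1.14 and 1.04 CPM in WT and 1.73, 1.20 and 1.14 CPM in tls1. The most like spi1 was Zm00001d044300, at 0.0835 (median 0.516), with 2.27, 2.90 and 2.75 CPM in WT and 5.26, 4.04 and 1.66 CPM in tls1. Each of these genes was picked as the smallest of 23348 differences, so a value below the median was fixed by that choice. The files pair none of these identifiers with a name.

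The counts of the synthesis genes can be set against each other within a library, where gene length cancels between libraries. For each 100 reads of vt2 there were 66.0, 67.7 and 73.5 reads of spi1 in WT 1, 2 and 3. In tls1 1, 2 and 3 there were 80.0, 90.5 and 43.5. The 3 WT libraries lay close together, and the tls1 libraries lay on both sides of them, with tls1 1 and tls1 2 above and tls1 3 below. Levels per length could not be formed, so bif2, vt2 and spi1 are not ranked by level.

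The rows beside the members differed in how far they shared these patterns. In the 20 rows nearest to spi1, 9 genes were tested, and their median log2 change was 0.64 in pair 1, 0.39 in pair 2 and -0.02 in pair 3, with 8, 7 and 4 of 9 higher in tls1. In the rows nearest to bif2, with 15 genes tested, the medians were 0.14, 0.08 and -0.07. In those nearest to vt2, with 6 tested, they were 0.20, 0.06 and -0.01. The median of the spi1 rows thus had the direction of spi1 in pair 1, where it was smaller than the change of spi1, and in pair 2, where it was about as large. In pair 3 it lay near 0, where spi1 was lower in tls1.

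The row just before spi1, Zm00001d044068, had 1.55, 3.17 and 2.27 CPM in WT 1, 2 and 3 and 4.18, 4.17 and 2.17 CPM in tls1 1, 2 and 3. Its difference from spi1 was 0.267, and 2.49% of the genes were closer to spi1. The row just before bif2, Zm00001d031066, had 0.606, 0.952 and 0.575 CPM in WT and 2.09, 1.38 and 0.562 CPM in tls1. Its difference from bif2 was 0.332, and 0.788% of the genes were closer. Both rows were picked after their values were seen. Neither the strand setting of the counts nor gene coordinates of the files' build were available, so reads shared between adjacent genes were not tested.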

How the data were processed

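Poly-A RNA of 3 WT and 3 tls1 libraries was sequenced as paired reads, per the labels' protocols. cutadapt and STAR are named in the submitters' processing notes. The sources used here name no version for either, no counting program or strand setting, and no genome build. The authors deposited raw read counts per feature, not normalized. From these, CPM was computed as count / column sum x 1000000. The quasi-likelihood F test of edgeR 4.0.16 (R 4.3.3) compared the genotypes, with TMM factors, no covariate and the filterByExpr filter. It left 23349 genes, over all of which p was adjusted by the Benjamini-Hochberg method. 3 of the 4 members passed. Intervals are 95%. Log2 levels used for likeness and the principal component were TMM scaled with a prior count of 2. DESeq2 1.42.0 and limma-voom (limma 3.58.1) were alternatives, and the fits were tested on simulated counts. Python 3.11.15 with scipy 1.17.1 gave exact (Clopper-Pearson) intervals, which, like floors, cover counting error only.

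Groups and replicate numbers came from the sample titles. Libraries of the same number were treated as pairs. Deviations from the genotype means correlated across genes between libraries of the same number at 0.409, 0.594 and 0.653 for numbers 1, 2 and 3. Libraries of different numbers were not compared in this way, so these values cannot show that the numbers pair the libraries. What a number stands for is not in the labels, nor is whether the libraries are separate plants. The p-values therefore reflect variation among the 6 libraries alone, and this can be technical. The members, lists and tests were chosen with earlier results of these data known. Genes named were the 4 members, the tested gene most like each detected member, and 2 adjacent rows. Listed pathway genes and markers were to be named where a table paired them with an identifier, and none was. Of 74 pathway symbols, 25 were in the reference table (assembly Zm-B73-REFERENCE-NAM-5.0), under other identifiers. The planned search for the most similar protein was not run, for want of sequences.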

Additional observations from a re-analysis of the deposited data

How the results depend on the processing

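The edgeR fits with the block on 2 of the 3 pairs, and DESeq2 with the block, were chosen after seeing the data. bif2, vt2 and spi1 passed the threshold in 0 of 18 alternatives each, with the lowest adjusted p at 0.278, 0.304 and 0.160. The sign was kept in all 18 for vt2 and in 17 for bif2 and for spi1. With the replicate block without pair 1, bif2 was at -0.18, spi1 at -0.15 and vt2 at 0.01 ± 0.11 (SE). These values came from fewer libraries, and apart from that the cause was not tested. Leaving out 1 library gave log2 fold changes from 0.19 to 0.97 for bif2, from 0.11 to 0.44 for vt2 and from 0.06 to 0.70 for spi1. The replicate block over all pairs gave 0.34 for bif2, 0.31 for vt2 and 0.30 for spi1 and changed no call of these genes. The mean change within pairs was 0.33 for bif2, 0.31 for vt2 and 0.29 for spi1 with a pseudocount of 1 CPM. With TMM library sizes it was 0.34, 0.31 and 0.29. Each moved by less than its SD, which is a weak bar since the SD was larger than the mean. ba1 gave no value in any fit, being at 0 throughout. The number of genes called was 1 in all, 13 with no filter, 2 with limma-voom, 1198 with DESeq2, 1640 with DESeq2 and the replicate block, and 162 with the edgeR replicate block. The block gave 433 without pair 1, 165 without pair 2 and 52 without pair 3, and leaving out 1 library without the block gave from 0 to 10. No group had enough libraries to look for a single library far from the rest.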
